A study of Arabidopsis thaliana with 20 samples.

Results

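DNA methylation in nrpe1 was set directly against that in swi3b, with wild-type Col-0 as the common reference, around nucleosomes that the submitters call stabilized by RNA polymerase V (Pol V) and by SWI3B. All 3 genotypes were Arabidopsis thaliana plants of the Columbia background, grown at 22 °C in 16 h of light and 8 h of dark, and leaves were taken at 3.5 weeks of age. The labels give the mutants as nrpe1 and swi3b with no allele beyond that name, and each genotype had 2 of the 6 bisulfite libraries in a series of 20 libraries. A window comprised a 200 bp nucleosome interval and 500 bp on each side, 1200 bp in all. There were 690 Pol V windows and 4089 SWI3B windows, and the members compared were the cytosines in them that had a level in nrpe1, swi3b and Col-0 alike. These shared cytosines numbered 25246 in 560 Pol V windows and 557329 in 4061 SWI3B windows, which made 4621 windows in total. Window means were taken where at least 10 cytosines were shared, which left 478 Pol V windows at 441 separate places and 4019 SWI3B windows at 3534 places.

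RNA-directed DNA methylation is the plant pathway in which Pol V makes noncoding transcripts, small RNAs bound to ARGONAUTE proteins pair with them, and the methyltransferase DRM2 is brought to the site. NRPE1 is the largest subunit of Pol V, and the pathway is known for methylation of cytosines in all sequence contexts, above all CHH (H is any base but G), at short transposons and repeats. SWI3B is a core subunit of SWI/SNF chromatin remodelling complexes, which move or evict nucleosomes, and it is known to associate with the Pol V pathway through a protein that binds noncoding RNA.

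Bisulfite converts cytosines that carry no methyl group, and the methylation level of a cytosine is the share of its reads that stay unconverted. Each deposited table held 1 combined value per position and genotype, with no read depth, no cytosine context and no column for a single replicate. Differences here therefore have no replicate check and were not tested; the range over 5 chromosomes, all from the same combined libraries, is given as a description of evenness. The genotype and tissue labels could not be checked, because these tables hold no expression and no reads over the mutated genes. Shared cytosines were 48.5% of the positions with a level in any genotype in the Pol V windows and 67.1% in the SWI3B windows. They were less methylated than the rest. In the Pol V windows Col-0 averaged 9.50% at cytosines for which nrpe1 had no level and 3.37% at those for which it had one. Over all cytosines that each genotype had, pooled levels in the Pol V windows were 0.308% in nrpe1, 4.39% in swi3b and 5.13% in Col-0. At shared cytosines they were 0.303% in nrpe1, 3.05% in swi3b and 3.27% in Col-0.

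The mutants differed most at the Pol V windows, where nrpe1 was nearly without methylation and swi3b was close to Col-0. The mean window level was 0.332% in nrpe1, 3.50% in swi3b and 3.80% in Col-0, with SDs over windows of 0.999 points in nrpe1, 7.16 in swi3b and 7.71 in Col-0. The difference nrpe1 minus swi3b was -3.16 points, and it lay between -3.27 and -2.86 on the 5 chromosomes. Against Col-0, nrpe1 was lower (-3.47 points, and -3.76 to -2.94 by chromosome) and kept 8.73% of the Col-0 level (5.84% to 10.5%). swi3b was lower by far less (-0.305 points) and kept 92.0% of the Col-0 level, but its difference ran between -0.906 on chromosome 3 and 0.175 on chromosome 4, so its sign was not the same on every chromosome. Most of these windows carried little methylation in any genotype. At a level of at least 5% there were 6 windows in nrpe1, 93 in swi3b and 99 in Col-0, and 111 of the 478 windows were at 0 in all 3.

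SWI3B windows had a much lower level, and the order of the genotypes was the same. The mean was 0.116% in nrpe1, 0.232% in swi3b and 0.259% in Col-0. The difference nrpe1 minus swi3b was -0.116 points (-0.192 to -0.0478 by chromosome). Against Col-0, nrpe1 was lower (-0.144 points) and kept 44.5% of the Col-0 level, with 32.1% on chromosome 5 and 70.7% on chromosome 1. swi3b kept 89.3%, and its mean was below Col-0 on each of the 5 chromosomes (-0.0612 to -0.0182 points). Counting single windows by any amount there was no such lean, with 1688 lower in swi3b and 1735 higher. By at least 1 point, 57 were lower in swi3b and 25 higher. The largest chromosome difference of swi3b from Col-0 was on chromosome 4. There 1 of 617 windows had 20.3% in swi3b and 50.1% in Col-0 over 13 shared cytosines. A level of at least 5% was found in 25 windows in nrpe1, 53 in swi3b and 65 in Col-0, of 4019. The window with the highest level in each mutant lay in a protein-coding gene on chromosome 1 and had 35.6% in nrpe1, 35.0% in swi3b and 35.6% in Col-0 over 106 shared cytosines. It was picked out after its values were seen, and the window that was highest in Col-0 was at 0% in nrpe1.

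**Figure D1:**
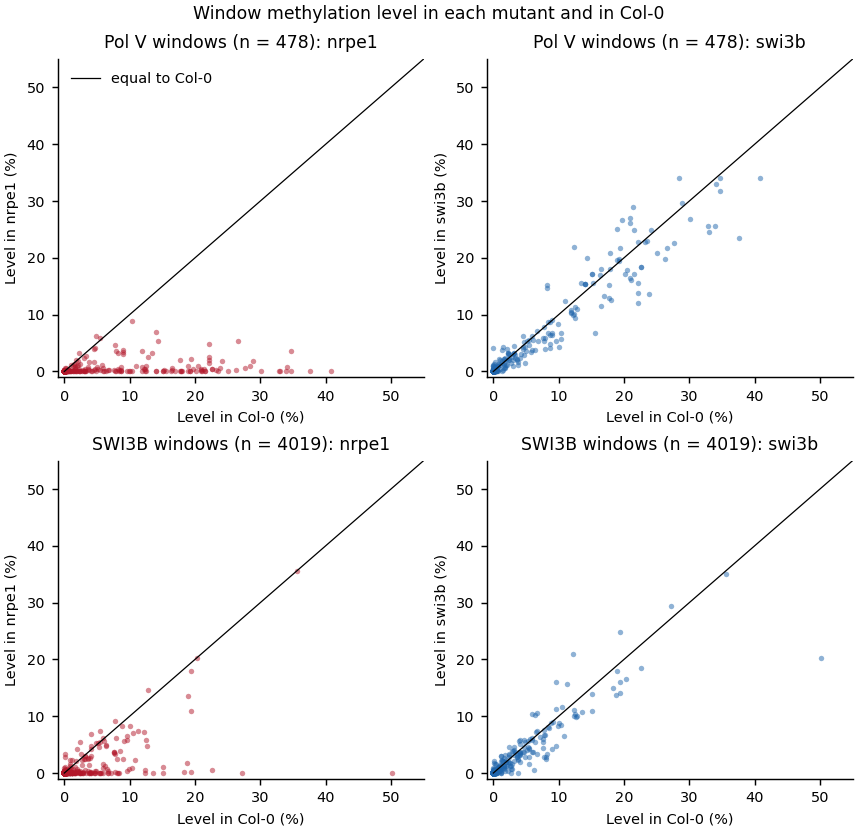
Mean methylation level of each window over its shared cytosines in a mutant (vertical axis, %) and in Col-0 (horizontal axis, %), with nrpe1 on the left, swi3b on the right, and 478 Pol V windows above 4019 SWI3B windows; the line marks equal levels. In the Pol V windows nrpe1 stays at or below 8.90% whatever the Col-0 level and swi3b scatters about the line, and in the SWI3B windows nrpe1 has points both along the line and along the axis.

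Single cytosines gave the same picture. Of the 2358 shared cytosines of the Pol V windows that had a level of at least 10% in Col-0, 79.1% were at 0 in nrpe1 and 10.9% in swi3b. Their mean level was 2.17% in nrpe1, 27.5% in swi3b and 31.9% in Col-0. Choosing cytosines by a high level in Col-0 favours low values in both mutants, so the choice was also made on swi3b. The 2248 cytosines at 10% or more in swi3b averaged 2.09% in nrpe1, 31.6% in swi3b and 29.7% in Col-0, and nrpe1 was thus as low when Col-0 took no part in the choice. nrpe1 was lower than Col-0 by at least 10 points at 2181 Pol V cytosines (8.64% of those shared) and higher at 53 (0.21%). swi3b was lower at 916 (3.63%) and higher at 703 (2.78%), so changes of this size in swi3b went in both directions.

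In the SWI3B windows the cytosines that Col-0 methylated were split between those that nrpe1 lost and those that it kept. Of 2634 shared cytosines at 10% or more in Col-0, 42.7% were at 0 in nrpe1 and 17.6% in swi3b, while 39.9% still had 10% or more in nrpe1 and 64.3% in swi3b. Mean levels were 13.6% in nrpe1, 22.4% in swi3b and 28.5% in Col-0. Here too the choice was also made on swi3b. The 2419 cytosines at 10% or more in swi3b averaged 13.7% in nrpe1, 28.3% in swi3b and 24.99% in Col-0. Whether swi3b lay below or above Col-0 thus depended on the choice, while nrpe1 was below both in either case. A choice made on nrpe1 favours high values in nrpe1, and there nrpe1 was above both. The 1467 cytosines at 10% or more in nrpe1 averaged 27.2% in nrpe1, 23.3% in swi3b and 25.3% in Col-0. Among all shared cytosines, nrpe1 was lower by at least 10 points at 1690 (0.303%) and higher at 466 (0.0836%). swi3b was lower at 1150 (0.206%) and higher at 880 (0.158%). With no read depth, the part that sampling of few reads plays in these changes was not tested.

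Each window was then placed by its direction in both mutants, counting a change where the window mean differed from Col-0 by at least 1 percentage point. Falls, rises, losses and gains are differences of the combined values, with no test. Both differences use the same Col-0 values, so they are not independent, and a high Col-0 value by itself moves a window toward a fall in both. In the Pol V set nrpe1 was lower than Col-0 in 135 windows (28.2% of 478) and higher in 2 (0.418%). swi3b was lower in 70 (14.6%) and higher in 33 (6.9%). Set directly against each other, nrpe1 was at least 1 point below swi3b in 135 windows (28.2%) and above it in 5 (1.05%).

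Where the mutants agreed, they were mostly lower together, and where they differed it was nearly always nrpe1 that was lower. Of the 478 Pol V windows, 66 (13.8%) were lower in both mutants and 44 (9.21%) in nrpe1 only. In a further 25 (5.23%) nrpe1 was lower and swi3b higher. The 66 windows lay at 56 separate places and the 25 at 19. A change in swi3b without a fall in nrpe1 was rare, with 3 windows lower in swi3b only (0.628%), 7 higher in swi3b only (1.46%), 1 higher in nrpe1 and lower in swi3b (0.209%) and 1 higher in both (0.209%). No Pol V window was higher in nrpe1 only (0%), and 331 (69.2%) changed in neither. With each genotype averaged over all cytosines it had, 90 windows were lower in both, 30 in nrpe1 only and 46 lower in nrpe1 and higher in swi3b, out of 530, so the number of opposite windows depended on which cytosines were compared.

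In the SWI3B set nrpe1 was lower in 106 windows (2.64% of 4019) and higher in 11 (0.274%), and swi3b was lower in 57 (1.42%) and higher in 25 (0.622%). nrpe1 was at least 1 point below swi3b in 90 windows (2.24%) and above it in 18 (0.448%). Both mutants were lower in 47 windows (1.17%), nrpe1 only in 45 (1.12%), and nrpe1 was lower with swi3b higher in 14 (0.348%). Windows that changed without a fall in nrpe1 comprised 7 lower in swi3b only (0.174%), 3 higher in nrpe1 and lower in swi3b (0.0746%), 3 higher in both (0.0746%), 5 higher in nrpe1 only (0.124%) and 8 higher in swi3b only (0.199%). The remaining 3887 (96.7%) changed in neither.

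**Figure D2:**
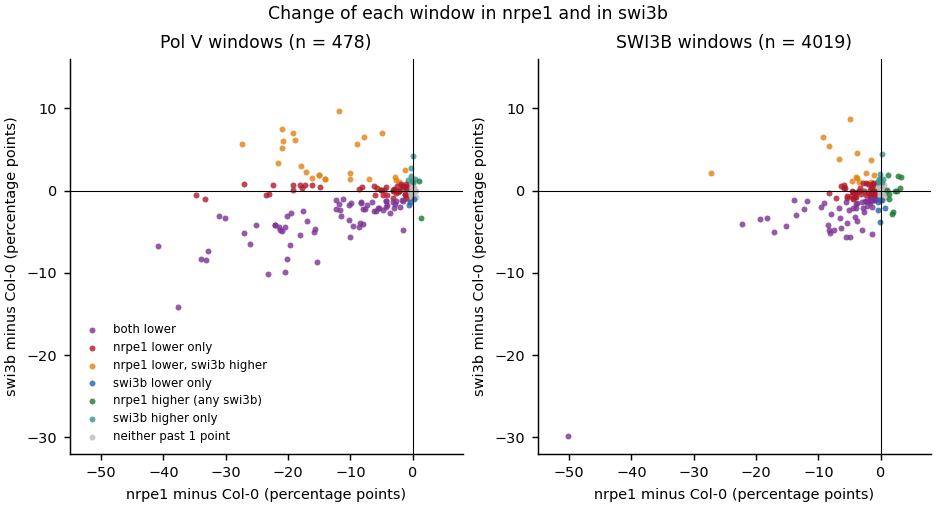
Difference of each window from Col-0 in nrpe1 (horizontal axis) and in swi3b (vertical axis), in percentage points, for 478 Pol V windows (left) and 4019 SWI3B windows (right), coloured by direction at 1 point or more. The points spread far to the left and little up or down, since falls in nrpe1 exceed changes in swi3b; both axes share the Col-0 value of a window.

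A fall shared by both mutants was on average far larger in nrpe1 than in swi3b. In the 66 Pol V windows lower in both mutants the mean was 0.856% in nrpe1, 11.1% in swi3b and 14.9% in Col-0, so that nrpe1 kept 5.74% and swi3b 74.4% of the Col-0 level. In the 44 windows lower in nrpe1 only, the mean was 0.607% in nrpe1, 9.57% in swi3b and 9.46% in Col-0. In the 25 opposite windows it was 1.11% in nrpe1, 18.1% in swi3b and 14.3% in Col-0. The classes are defined by these differences, so the means describe them and show nothing further. In the 47 SWI3B windows lower in both, the mean was 1.79% in nrpe1, 5.99% in swi3b and 9.33% in Col-0, and swi3b kept 64.2% of Col-0 where nrpe1 kept 19.2%. The 7 SWI3B windows lower in swi3b only had 6.63% in nrpe1, 4.88% in swi3b and 6.75% in Col-0.

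**Figure D3:**
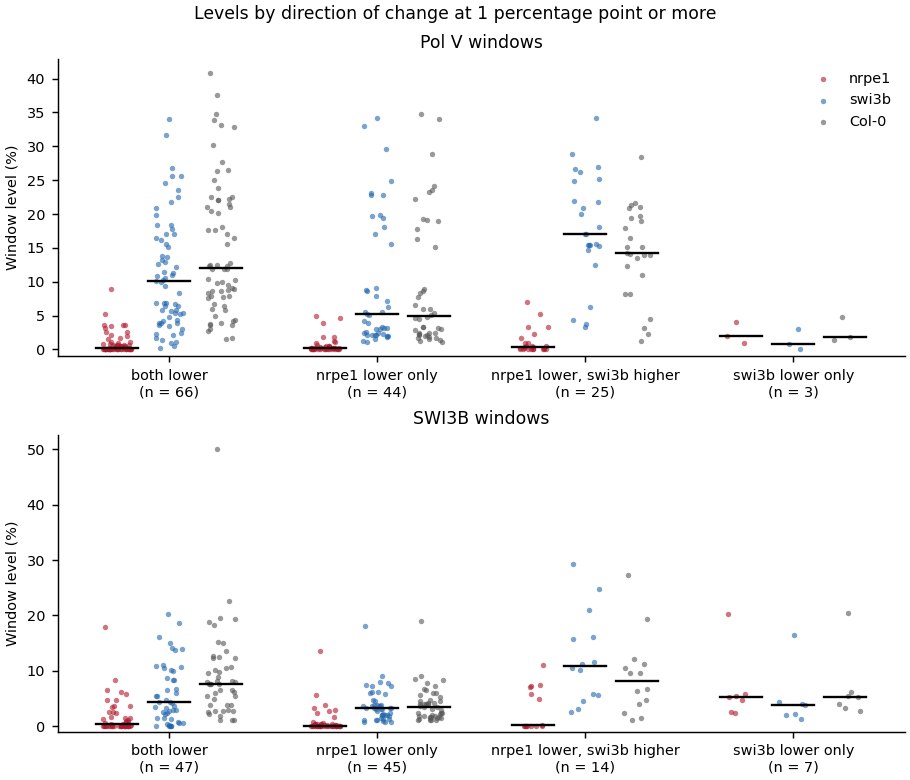
Window level (%) in nrpe1, swi3b and Col-0 by direction of change at 1 percentage point or more, for Pol V windows (above) and SWI3B windows (below); points are windows, spread sideways for visibility, and black bars are medians. In the 3 classes with a fall in nrpe1 its median lies near 0, while swi3b lies below, level with or above Col-0 as the class requires.

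Windows with the largest falls in nrpe1 and a swi3b level near Col-0 at shared cytosines are given first. Coordinates are those of the nucleosome interval on TAIR10, 1-based, and positions within a window are distances from its centre, negative toward lower coordinates. At chr2:7581382-7581581, outside any annotated gene, 32 shared cytosines averaged 0% in nrpe1, 34.1% in swi3b and 34.7% in Col-0, and all 32 were at 0 in nrpe1. At chr5:20426682-20426881, also outside genes, 115 shared cytosines averaged 0.707% in nrpe1, 33.1% in swi3b and 34.1% in Col-0. There 88 cytosines were lower by at least 10 points in nrpe1, and they lay between -46 and 600 bp, so that the loss extended to the right edge of the window. In swi3b, 30 cytosines of that window were lower by this much and 18 were higher. At chr4:2815242-2815441 the means over 29 cytosines were 3.57% in nrpe1, 31.7% in swi3b and 34.7% in Col-0. When each genotype was averaged over all its cytosines, swi3b was not near Col-0 in the first of these windows, with 0% in nrpe1, 28.3% in swi3b and 41.6% in Col-0. In the other two swi3b was then above Col-0, by 1.11 and 2.86 points, and nrpe1 minus Col-0 at the last was -51.2 points.

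The largest shared fall of the Pol V set was at chr5:18171292-18171491, where 38 cytosines averaged 0.0346% in nrpe1, 23.5% in swi3b and 37.6% in Col-0. Over all cytosines of each genotype swi3b minus Col-0 was -6.66 points, against -14.1 points at shared ones. In nrpe1 36 of the shared cytosines were lower by at least 10 points, between -93 and 328 bp, and in swi3b 17 were, between -23 and 296 bp, inside the same stretch. At chr3:16700027-16700226 the means over 26 cytosines were 0.577% in nrpe1, 13.7% in swi3b and 23.8% in Col-0. This fall in swi3b held at shared cytosines alone, since over all cytosines of each genotype the means were 1.67% in nrpe1, 22.8% in swi3b and 17.3% in Col-0. At chr3:17367027-17367226 the means over 13 cytosines were 1.5% in nrpe1, 12.1% in swi3b and 22.1% in Col-0.

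The largest opposite change in the Pol V set was at chr4:4843487-4843686 in the protein-coding gene AT4G07995, where 37 cytosines averaged 0.441% in nrpe1, 22.0% in swi3b and 12.3% in Col-0. Of these, 18 were lower by at least 10 points in nrpe1 and 12 were higher by as much in swi3b. This direction also held over all cytosines of each genotype, at 0.34% in nrpe1, 12.3% in swi3b and 5.56% in Col-0. It did not hold so for the other two windows named. At chr5:9049372-9049571 shared cytosines gave 0.358% in nrpe1, 14.7% in swi3b and 8.19% in Col-0, but all cytosines gave 0.288% in nrpe1, 20.8% in swi3b and 21.2% in Col-0. At chr1:18164457-18164656 they gave 0.138% in nrpe1, 25.1% in swi3b and 19.0% in Col-0, against 0.254% in nrpe1, 22.7% in swi3b and 24.1% in Col-0 over all cytosines.

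Few Pol V windows had a fall in swi3b without one in nrpe1, and those were weakly methylated. The largest was at chr2:6199722-6199921, next to SRP2 (a serpin, of a family of protease inhibitors), with 6.23% in nrpe1, 1.55% in swi3b and 4.86% in Col-0 over 36 cytosines. It was also the largest rise in nrpe1, and 6 cytosines between -567 and -487 bp were lower by at least 10 points in swi3b. At chr5:18104597-18104796 the means were 1.99% in nrpe1, 0.752% in swi3b and 1.81% in Col-0, and at chr1:13656562-13656761 they were 5.91% in nrpe1, 4.64% in swi3b and 5.43% in Col-0. Over all cytosines of each genotype both mutants changed direction in these 2 windows, and at the last one the difference of swi3b from Col-0 was under 1 point at shared cytosines too. A rise in nrpe1 at chr2:7145917-7146116, overlapping AT2G16490 in a window that also touches NERD (a factor of a small-RNA pathway of DNA methylation), amounted to 3.21% in nrpe1 and 3.33% in swi3b against 2.18% in Col-0. At chr5:8847182-8847381 nrpe1 had 0.649%, swi3b 0% and Col-0 0.1%, differences under 1 point. Neither rise in nrpe1 held over all cytosines, where nrpe1 minus Col-0 was -1.09 points at the first window and -0.781 points at the second.

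SWI3B windows held losses in nrpe1 as complete as those of the Pol V set, but 37 SWI3B windows share bases with a Pol V window. At chr5:22841443-22841642 the means over 55 cytosines were 0.035% in nrpe1, 29.4% in swi3b and 27.2% in Col-0. The 23 cytosines lower by at least 10 points in nrpe1 lay between -470 and -226 bp, outside the nucleosome interval. At chr5:19439943-19440142, nearest to CYP705A5, a cytochrome P450 of thalianol metabolism, the means were 0.462% in nrpe1, 18.6% in swi3b and 22.7% in Col-0, with 27 cytosines lost between -587 and 72 bp. Over all cytosines swi3b minus Col-0 there was -9.37 points, against -4.10 at shared ones, and at the window before it 3.29 against 2.13. At chr2:4300983-4301182 the means were 0.124% in nrpe1, 16.0% in swi3b and 19.5% in Col-0. The window nearest to CYP705A5 lies almost wholly on a Pol V window. That Pol V window had 0.44% in nrpe1, 18.4% in swi3b and 22.6% in Col-0.

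The largest shared fall among SWI3B windows was at chr4:5710798-5710997, with 0% in nrpe1, 20.3% in swi3b and 50.1% in Col-0 over 13 cytosines. Over all cytosines of each genotype the fall in swi3b was much smaller, at 0% in nrpe1, 26.0% in swi3b and 34.8% in Col-0. All 13 shared cytosines were lower by at least 10 points in nrpe1 and 12 in swi3b, between -487 and -335 bp in both mutants. At chr3:11534828-11535027 the means over 58 cytosines were 0.0375% in nrpe1, 2.90% in swi3b and 8.10% in Col-0. There 13 cytosines were lost in nrpe1 and 11 in swi3b, all between -125 and -63 bp, so the 2 losses lay in the same short stretch. Over all cytosines nrpe1 minus Col-0 there was -4.67 points and swi3b minus Col-0 -2.29. At chr1:12768613-12768812 only 10 cytosines were shared, with means of 2.48% in nrpe1, 2.41% in swi3b and 8.03% in Col-0, and over all cytosines swi3b was 0.689 points above Col-0.

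Opposite changes, and changes in swi3b alone, were found in SWI3B windows too. At chr2:13094803-13095002 the means were 7.22% in nrpe1, 20.9% in swi3b and 12.2% in Col-0, and over all cytosines swi3b was still 7.08 points above Col-0. At chr4:2447918-2448117 they were 0.294% in nrpe1, 16.1% in swi3b and 9.56% in Col-0, and at chr3:20258853-20259052, in AT3G54730, 10.97% in nrpe1, 24.8% in swi3b and 19.3% in Col-0. In the last 2 windows swi3b minus Col-0 was -1.5 and -1.60 points over all cytosines. The largest fall in swi3b without one in nrpe1 was at chr1:21750913-21751112, in the protein-coding gene AT1G58602 and the overlapping pseudogene AT1G58561. Its 255 shared cytosines averaged 14.6% in nrpe1, 9.97% in swi3b and 12.8% in Col-0, and this changed by less than 1 point in each genotype over all cytosines. In nrpe1 36 cytosines there were higher by at least 10 points and 23 lower, and in swi3b 20 were higher and 45 lower, so both mutants had changes in both directions within 1 window.

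At chr2:7784093-7784292, across the neighbouring genes AT2G17920 and AT2G17930, the means were 7.37% in nrpe1, 2.90% in swi3b and 5.45% in Col-0. Over all cytosines nrpe1 minus Col-0 was 3.40 points there and swi3b minus Col-0 -1.39. At chr2:1655763-1655962, beside the pseudogene AT2G04730, they were 4.77% in nrpe1, 1.98% in swi3b and 4.08% in Col-0, but over all cytosines nrpe1 minus Col-0 was -1.46 points and swi3b minus Col-0 -4.37. The largest rise in nrpe1 was at chr1:12444053-12444252 in ARF13, which encodes an auxin response factor, a type of transcription factor. It had 3.42% in nrpe1 and 1.77% in swi3b, and 0.129% in Col-0, over 50 cytosines. The next 2 rises by size were in pseudogenes. At chr5:10307953-10308152 the means were 5.46% in nrpe1, 2.74% in swi3b and 2.44% in Col-0, and at chr4:4217818-4218017 they were 6.88% in nrpe1, 5.83% in swi3b and 4.08% in Col-0.

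The share of methylation that each mutant retained was described in windows whose Col-0 level reached 5%. In 99 such Pol V windows the mean was 1.06% in nrpe1, 15.3% in swi3b and 16.8% in Col-0. The median share of the Col-0 level was 2.08% in nrpe1 and 86.7% in swi3b. nrpe1 kept under 10% in 79 windows, 10% to 50% in 17, and more in 3. swi3b kept between 43.7% and 186%, with 4 windows under 50%, 31 between 50% and 80%, 54 between 80% and 120% and 10 above. nrpe1 was below swi3b in 97 of the 99 windows, some of which overlap one another or have the same coordinates. When the 93 windows at 5% or more in swi3b were taken instead, the means were 1.07% in nrpe1, 16.1% in swi3b and 17.3% in Col-0, so swi3b remained slightly below Col-0 where its own level made the choice.

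Retention in nrpe1 was spread far wider in the SWI3B windows. Among the 65 at 5% or more in Col-0, the mean was 4.24% in nrpe1, 9.56% in swi3b and 11.2% in Col-0. Some of the 65 share bases with Pol V windows. The median share kept was 28.7% in nrpe1 and 83.6% in swi3b. nrpe1 kept under 10% in 27 windows, 10% to 50% in 14, 50% to 80% in 11, 80% to 120% in 12 and more in 1. nrpe1 was below swi3b in 53 of these windows and above it in 12. In the 41 windows where nrpe1 kept under 50%, the mean was 1.15% in nrpe1, 8.58% in swi3b and 11.2% in Col-0. In the 24 where it kept 50% or more, the mean was 9.52% in nrpe1 and 11.2% in both swi3b and Col-0. The annotation of these groups also differed, although they are small. The nucleosome lay in no annotated gene in 28 of the 41 windows and in 7 of the 24, and in a pseudogene in 1 of the 41 and 7 of the 24. The choice of SWI3B windows was also made on swi3b. The 53 windows at 5% or more in swi3b averaged 4.73% in nrpe1, 11.2% in swi3b and 11.98% in Col-0. Their swi3b mean was thus still slightly below that of Col-0.

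**Figure D4:**
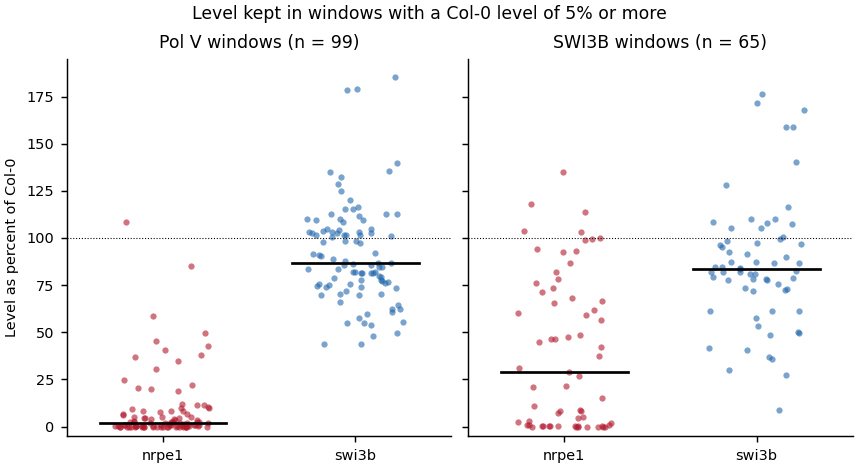
Level in nrpe1 and in swi3b as a percentage of the Col-0 level in windows at 5% or more in Col-0 (99 Pol V windows on the left, 65 SWI3B windows on the right); points are windows spread sideways, black bars are medians, and the dotted line marks the Col-0 level. The nrpe1 median is 2.08% in Pol V windows and 28.7% in SWI3B windows, and the swi3b medians are 86.7% and 83.6%.

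Pooled over the shared cytosines of the Pol V windows, nrpe1 was below Col-0 at every distance and kept the smallest share nearest the centre. Within single windows the losses were mostly shorter than the window, as their spans below show. Within 100 bp of the centre, over 1794 shared cytosines, the level was 0.217% in nrpe1, 11.5% in swi3b and 12.1% in Col-0. At 500 to 600 bp, over 6166 cytosines, it was 0.39% in nrpe1, 2.12% in swi3b and 2.34% in Col-0. The difference between nrpe1 and Col-0 was -11.9 points within 100 bp, -3.99 at 100 to 200 bp and -1.95 at 500 to 600 bp, following the drop of the Col-0 level itself. The share that nrpe1 kept was higher farther out, at 1.79% within 100 bp, 3.07%, 8.94%, 12.3% and 16.7% in the next bins of 100 bp, and 16.6% at the edge. The share that swi3b kept showed no such course, with 95.1%, 97.8% and 98.0% within 300 bp and 85.9%, 90.2% and 90.7% beyond. The bins hold different windows, since shared cytosines were scarce near the centre, where 156 windows had any, against 413 at the edge.

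The same course was seen inside windows. In 172 Pol V windows with at least 5 shared cytosines both within 200 bp of the centre and beyond 400 bp, nrpe1 kept 2.16% of the Col-0 level in the inner part and 9.25% in the outer part, and swi3b kept 95.2% and 95.8%. nrpe1 was at least 1 point lower in both parts in 33 of these windows, in the inner part alone in 23 and in the outer part alone in 7. Among cytosines at 10% or more in Col-0, 91.8% were at 0 in nrpe1 within 100 bp of the centre and 72.0% at 500 to 600 bp. For swi3b these shares were 3.39% and 13.6%. The cytosines at these distances were unlike, with a mean Col-0 level of 42.0% within 100 bp and 27.5% at 500 to 600 bp. The part that this plays in the shares at 0 was not tested.

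In the SWI3B windows the level was not highest at the nucleosome, and nrpe1 kept the smallest share in the outermost bins. Within 100 bp the level was 0.0997% in nrpe1, 0.133% in swi3b and 0.154% in Col-0, and at 400 to 500 bp it was 0.113% in nrpe1, 0.193% in swi3b and 0.218% in Col-0. nrpe1 kept 64.7% of the Col-0 level within 100 bp, 73.1%, 65.2%, 57.9% and 51.6% in the next bins, and 51.5% at 500 to 600 bp. The bins pool cytosines. Pooled over all shared cytosines nrpe1 kept 59.2%, against the 44.5% given above from window means. On the left side of windows at 5% or more in Col-0 the order of the ends was the other way, with 47.5% within 100 bp and 53.0% at 500 to 600 bp. In 3590 windows with enough cytosines in both parts it kept 56.8% in the inner part and 44.1% in the outer part, and a fall of at least 1 point was in both parts in 18, in the inner part alone in 21 and in the outer part alone in 58. swi3b kept 86.2% within 100 bp and 92.7% at the edge.

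**Figure D5:**
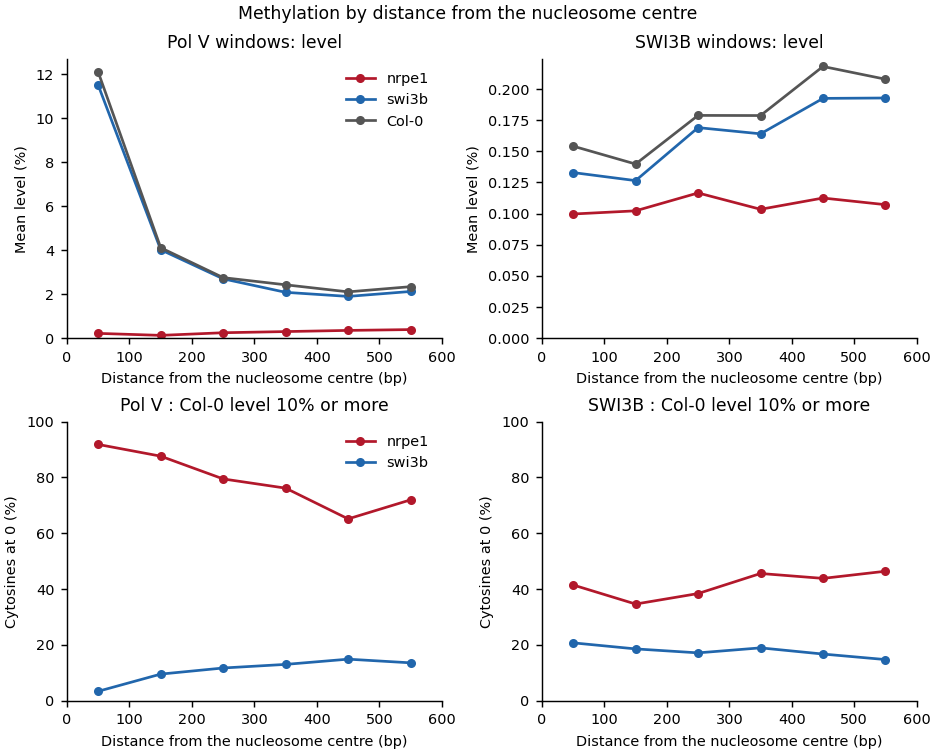
Methylation by distance from the nucleosome centre in bins of 100 bp (horizontal axis, bp), for Pol V windows (left) and SWI3B windows (right): mean level of shared cytosines in nrpe1, swi3b and Col-0 (upper panels, %, with different scales) and the percentage of cytosines at 10% or more in Col-0 that are at 0 in nrpe1 and in swi3b (lower panels). In Pol V windows the Col-0 and swi3b levels peak at the centre and nrpe1 stays near 0 throughout, and in SWI3B windows nrpe1 lies between 0.0997% and 0.117% at every distance.

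The stretch over which methylation changed was measured in windows with at least 3 cytosines that differed from Col-0 by 10 points or more. In nrpe1 128 Pol V windows (26.8%) had such losses and 4 (0.837%) such gains. The losses spanned a median of 318 bp (quartiles 138 and 645 bp) and at most 1151 bp, with a median of 12 cytosines each. In 63 windows the span was under 300 bp, and in 6 it was over 1000 bp. The losses reached more than 500 bp from the centre in 80 windows, were within 100 bp of it in 4, and lay on both sides beyond 100 bp in 34. In swi3b 107 Pol V windows (22.4%) had losses, over a median of 299 bp with 6 cytosines each, and 89 (18.6%) had gains, over a median of 275 bp with 5 cytosines each. Losses and gains in swi3b were thus alike in extent. A span can be no longer than the stretch with shared cytosines, whose median was 901 bp in the windows with losses in nrpe1 and 944 bp in those with losses in swi3b.

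In the SWI3B windows the corresponding counts were 125 windows with losses in nrpe1 (3.11%) and 43 with gains (1.07%). Losses in nrpe1 had a median span of 227 bp and gains 342 bp. In swi3b 110 windows (2.74%) had losses, with a median span of 208 bp, and 81 (2.02%) had gains, with a median of 286 bp. Beside losses, gains in nrpe1 were thus less rare here than in the Pol V set.

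The windows were compared with regions that the series lists as differentially methylated in mutants of DRM2, the methyltransferase of the pathway, CMT3, which maintains CHG methylation, and MET1, which maintains CG methylation. Regions of 100 bp listed for drm2 in the CHH context overlapped 76 Pol V windows (15.9%) by at least 1 bp. By direction, they overlapped 47.0% of the windows lower in both mutants, 34.1% of those lower in nrpe1 only, 68.0% of the opposite ones and 3.93% of those that changed in neither. Regions listed for met1 in the CHH context overlapped 102 Pol V windows (21.3%). They overlapped the same classes more often, at 54.5% of those lower in both, 50% of those lower in nrpe1 only, 72% of the opposite ones and 7.25% of those that changed in neither. A fall of 1 point needs a Col-0 level of at least 1%. In the 150 Pol V windows with such a level, drm2 CHH regions overlapped 43.3% and met1 CHH regions 52%. The classes lower in both and lower in nrpe1 only lay on either side of these shares, and the opposite windows lay above them. In the 76 windows with a drm2 CHH region the level was 0.625% in nrpe1, 13.2% in swi3b and 14.0% in Col-0, and in the other 402 it was 0.276% in nrpe1, 1.66% in swi3b and 1.87% in Col-0. The windows they overlapped thus had the higher swi3b and Col-0 levels, and how these regions were called is not given in the sources used here. In the SWI3B set the drm2 CHH regions overlapped 57 windows, in which nrpe1 kept 12.3% of the Col-0 level and swi3b 79.99%, against 56.1% and 92.6% in the other 3962. The 57 include chr4:5710798-5710997, with 20.3% in swi3b and 50.1% in Col-0 over 13 shared cytosines. Their mean Col-0 level was 4.81%, so this 1 window weighs heavily on the share that swi3b kept. Over all cytosines of each genotype it had 26.0% in swi3b and 34.8% in Col-0. In 7 SWI3B windows that overlapped cmt3 CHG regions, the means were 7.26% in nrpe1, 6.28% in swi3b and 7.74% in Col-0. The nrpe1 mean was 93.8% of that in Col-0, but this averages falls and rises. By direction, 2 of the 7 were lower in both mutants, 1 in nrpe1 only and 1 changed in neither. A further 2 were higher in nrpe1 and lower in swi3b, and 1 was higher in nrpe1 only. In 11 Pol V windows that overlapped cmt3 CHG regions, the means were 0.698% in nrpe1, 14.6% in swi3b and 16.98% in Col-0. There nrpe1 kept 4.11% and was at least 1 point below Col-0 in each window.

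The sets differed in where their nucleosomes lay. The nucleosome lay in no annotated gene in 71.8% of the Pol V windows and 15.2% of the SWI3B windows, and in a protein-coding gene in 25.5% and 81.4%. Among windows lower in both mutants, 87.9% of the Pol V nucleosomes and 63.8% of the SWI3B nucleosomes were outside annotated genes. Such a fall needs a Col-0 level of at least 1%. Among all windows with that level, the shares were already 84% in the Pol V set and 52.9% in the SWI3B set. Of 15 genes listed as known for methylation at their promoter or in their body, 14 were matched in the annotation and 2 had a window within 1000 bp. The window that touches IBM1, a histone demethylase gene whose intron is methylated in wild type, had 0.0826% in nrpe1, 0.044% in swi3b and 0.0342% in Col-0. The window at PAI2, a gene of tryptophan synthesis, had 0.0155% in nrpe1 and 0% in swi3b and Col-0. Levels were thus near 0 in all 3 genotypes in both windows.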

How the data were processed

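Whole-genome bisulfite sequencing of leaves (100 bp reads, per the labels) was analysed for nrpe1, swi3b and Col-0. The authors deposited methylation levels as a fraction between 0 and 1 for each position of 1200 bp windows, with no value elsewhere. Per the labels, a table comes from both replicates of its genotype, which are thus combined. The submitters' processing notes name Bismark, Bowtie2, Picard, methylKit and TAIR10, with no role or order. Caller settings, a coverage minimum, cytosine context and strand are not given in the sources used here, and depth is unknown. From the fractions, percent levels were averaged over shared cytosines per window, then over windows. The 2 deposited nucleosome lists are identical and hold the SWI3B nucleosomes. Gene names come from the RefSeq annotation of TAIR10.1, used for names and neighbours only. Pol V and SWI3B windows share bases in 40 pairs. The 3 windows of each set with the largest fall in nrpe1 alone (swi3b within 5 points of Col-0), shared fall, opposite change, fall in swi3b alone and rise in nrpe1 were named. Members and lists were chosen with earlier results of these data known. The code was tested on simulated data. Python 3.11.15, numpy 2.4.6, pandas 2.3.3 and matplotlib 3.10.9 were used.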

Additional observations from a re-analysis of the deposited data

How the results depend on the processing

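Over 242 alternative values of the comparisons, 173 lay within the SD over chromosomes from the main value (for counts, within 1.5 times). The other 69 moved further. None was scored as a change of sign, or for retained shares as crossing the Col-0 level. Counts could not be scored so, and a difference of exactly 0 was not, so this says nothing about counts. All 50 values without 1 chromosome stayed within that SD, and they are among the 173. Leaving out 1 chromosome could hardly give another outcome, since the remaining chromosomes supply most of the windows behind each value. These 50 values therefore say little about stability. Differences below are in percentage points. Pooled over cytosines, nrpe1 minus swi3b was -2.74 and nrpe1 minus Col-0 -2.97 in Pol V windows, and nrpe1 minus swi3b was -0.0567 in SWI3B windows. Medians over windows with any level were -0.0992 and -0.105 in Pol V windows and -0.000927 and -0.000469 in SWI3B windows, where swi3b minus Col-0 was 0, since most windows are near 0. With at least 1 shared cytosine, nrpe1 minus swi3b was -3.47 and 2 Pol V windows were higher in both. In the nucleosome core these differences were -11.1 and -11.6 in Pol V windows, nrpe1 kept 2.64%, nrpe1 minus swi3b was -0.0487 in SWI3B windows, and swi3b kept 75.5% there. In the outermost 300 bp on each side they were -2.52 and -2.83, nrpe1 kept 11.1% in Pol V windows and swi3b 95.4% in SWI3B windows, and 28 SWI3B windows were lower in nrpe1 only and 22 opposite. In windows that overlap no other, they were -2.48 and -2.77, nrpe1 kept 11.4%, and 14 Pol V windows were opposite. The cause of these shifts was not tested.

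With each genotype averaged over its own cytosines, nrpe1 minus swi3b was -3.96 and nrpe1 minus Col-0 -4.50 in Pol V windows. In SWI3B windows nrpe1 minus Col-0 was -0.222, swi3b minus Col-0 -0.0499, and swi3b kept 85.2%. Direction classes on these cytosines were added after seeing the data, with 46 Pol V windows opposite and 0 higher in both, and 82 SWI3B windows lower in both. Of 58 differences of named windows, 15 then changed sign. For swi3b minus Col-0 these were 1.11 at chr5:20426682-20426881, 2.86 at chr4:2815242-2815441, 5.47 at chr3:16700027-16700226, -0.404 at chr5:9049372-9049571, -1.40 at chr1:18164457-18164656, 0.339 at chr5:18104597-18104796, 0.387 at chr1:13656562-13656761, 0.689 at chr1:12768613-12768812, -1.50 at chr4:2447918-2448117 and -1.60 at chr3:20258853-20259052. For nrpe1 minus Col-0 they were -0.116 at chr5:18104597-18104796, -0.442 at chr1:13656562-13656761, -1.09 at chr2:7145917-7146116, -0.781 at chr5:8847182-8847381 and -1.46 at chr2:1655763-1655962. Without the 10 windows of highest Col-0 level, also chosen after seeing the data, nrpe1 minus swi3b was -2.63 and nrpe1 minus Col-0 -2.83 in Pol V windows.

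Counting any difference, 158 Pol V windows were lower in both, 0 in 1 mutant only, 83 opposite and 36 higher in both. Opposite windows here are those lower in nrpe1 and higher in swi3b. The reverse was found in 17, while 33 were higher in nrpe1 only and 40 in swi3b only. In the SWI3B set 1271 windows were lower in both, 6 in nrpe1 only, 2 in swi3b only, 572 opposite and 909 higher in both. There the reverse was found in 415, while 237 were higher in nrpe1 only and 254 in swi3b only. At 5 points or more, 15 Pol V windows were lower in both, 68 in nrpe1 only, 0 in swi3b only, 9 opposite and 0 higher in both, and in SWI3B windows 4 were lower in both, 2 in swi3b only, 2 opposite and 0 higher in both. With at least 30 shared cytosines, 42 Pol V windows were lower in both. In windows at 5% or more in Col-0, a choice made after seeing the data, 22 Pol V windows were lower in nrpe1 only, 0 in swi3b only and 0 higher in both, and 12 SWI3B windows were lower in nrpe1 only, 4 in swi3b only, 9 opposite and 0 higher in both. In those windows nrpe1 minus Col-0 was -33.5 within 100 bp and -10.4 at 500 to 600 bp in the Pol V set and -4.86 and -4.31 in the SWI3B set. swi3b minus Col-0 was -1.13 at 500 to 600 bp in the Pol V set, and -2.21 within 100 bp and -1.25 at 500 to 600 bp in the SWI3B set.

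No paired analysis was possible because each table combines both replicates of a genotype, and leaving out a replicate was not possible either. Restricting to CHH cytosines or to 1 strand was not run, since the reference sequence was not used here. Depth is unknown, and the precision of a level of 0 is unknown too.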
